A study of Mus musculus with 6 samples.

Results

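The genes described here are 10 genes of intracellular nucleic acid sensing, found by their symbols among the 54752 genes of the count tables. On the DNA side they are Tmem173 (STING), Zbp1, Trex1 and Samhd1. On the RNA side they are the sensors Ddx58 (RIG-I), Ifih1 (MDA5) and Dhx58 (LGP2) with their adaptor Mavs, and the kinases Tbk1 and Ikbke serve more than 1 branch. RNA-seq libraries came from the entire right hippocampus of 6 wild-type male C57BL/6 mice aged 14 weeks, with 1 library per mouse. In 3 mice, bilateral carotid artery stenosis (BCAS) was produced with a microcoil around each common carotid artery, the narrower coil being on the right, and 3 sham mice had the same surgery without coils. Tissue was taken 3 weeks after the operation. The comparison asks how the transcripts of the sensing machinery differ between chronically hypoperfused and sham hippocampus.

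Cells watch for RNA and DNA in places where their own should not be. RIG-I and MDA5 bind double-stranded RNA in the cytosol and signal through MAVS on the mitochondrial surface, while LGP2, which lacks the signalling domains of the other sensors, modulates them. Cytosolic DNA is bound by cGAS, whose product cGAMP activates STING on the endoplasmic reticulum. STING and MAVS both recruit TBK1 and the related kinase IKKε, encoded by Ikbke, which phosphorylate interferon regulatory factors and so switch on type I interferon genes. TREX1 degrades stray DNA, SAMHD1 removes deoxynucleotides, and ZBP1 binds nucleic acids in the Z conformation and acts on RIPK kinases. Several of these genes are known interferon targets, and in the mouse brain STING is best known from microglia.

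Reference promoter sequence was examined for the genes, since interferon-stimulated response elements (ISRE) and gamma-activated sites (GAS) are the textbook binding sequences of interferon signalling. Windows of 300 bases from RefSeq (build GRCm38.p6, from 250 bases before to 50 bases after the start) were matched for 7 of the 10 genes, and for Tmem173, Zbp1 and Dhx58 none is shown. The ISRE core was searched as GAAA, any 2 bases and GAAA again, and the GAS as TTCNNNGAA, both on either strand. The 3 sites found are given 5′ to 3′ on the gene's own strand, with the match in capitals, because they lie in genes that rose.
Ddx58 ISRE site: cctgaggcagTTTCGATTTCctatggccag
Ifih1 ISRE site: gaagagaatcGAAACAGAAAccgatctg
Samhd1 GAS site: acaccaccctTTCGGAGAAacacaagggc
The Ddx58 site (chr4:40239804-40239833, minus strand) held the match at bases 3 to 12 of the transcript, on the strand opposite to the gene. In Ifih1 (chr2:62646206-62646233, minus strand) the match lay at bases 33 to 42, on the gene's own strand. The Samhd1 site (chr2:157135313-157135341, minus strand) held its GAS at bases -235 to -227, before the start. No window of the 7 genes held both motifs, so no match of one overlapped the other. In the windows of Mavs, Tbk1, Ikbke and Trex1 neither set of letters was present. Of all 32851 windows, 3.44% held the ISRE letters and 8.30% the GAS letters. Among the 1443 windows of genes up-regulated in BCAS mice, these shares were 8.04% and 8.32%, and among the windows of all tested genes 3.10% and 6.86%. A match is a description of the letters alone.

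The libraries held 29652456 to 35607098 counts each, and the normalization factors (TMM) were 0.964 to 1.05. The limit of detection was set at 3 counts in a library. That is 0.0875 to 0.0995 CPM, the count scaled to library size, and it covers counting error only. Of the 18617 genes that passed the filter on low counts, 1571 were up-regulated and 184 down-regulated differentially expressed genes (DEGs), for which the adjusted P had to lie below 0.05 and the change had to exceed 1 on the log2 scale. The 184 were 0.988% of the tested genes. All adjusted P values for fold changes are from edgeR's quasi-likelihood test over these genes. In 83.4% of the up-regulated DEGs the highest BCAS value belonged to BCAS mouse 3.

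Of the 10 genes, 9 passed the filter and 8 were up-regulated DEGs in BCAS mice, against 8.44% of all tested genes. None of the 9 fell. Without the fold threshold, 18.1% of all tested genes rose and 13.4% fell at an adjusted P below 0.05. The exceptions were Tbk1, which did not pass the test, and Trex1, which had no counts. The log2 fold changes of the 9 genes ran from -0.045 to 6.29 with a median of 2.03, beside a median of 0.018 over all tested genes. For the same 8 genes every BCAS mouse lay above every sham mouse, a pattern seen in 25.3% of all tested genes. BCAS mouse 3 had the highest CPM in 7 of the 9, with Ikbke and Tbk1 as the exceptions. Without BCAS mouse 3, 6 of the 10 genes were up-regulated DEGs. Mavs and Samhd1 then had log2 fold changes of 0.89 and 0.98, just under the threshold, with adjusted P values of 5.93e-04 and 9.16e-05.

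**Figure D1:**
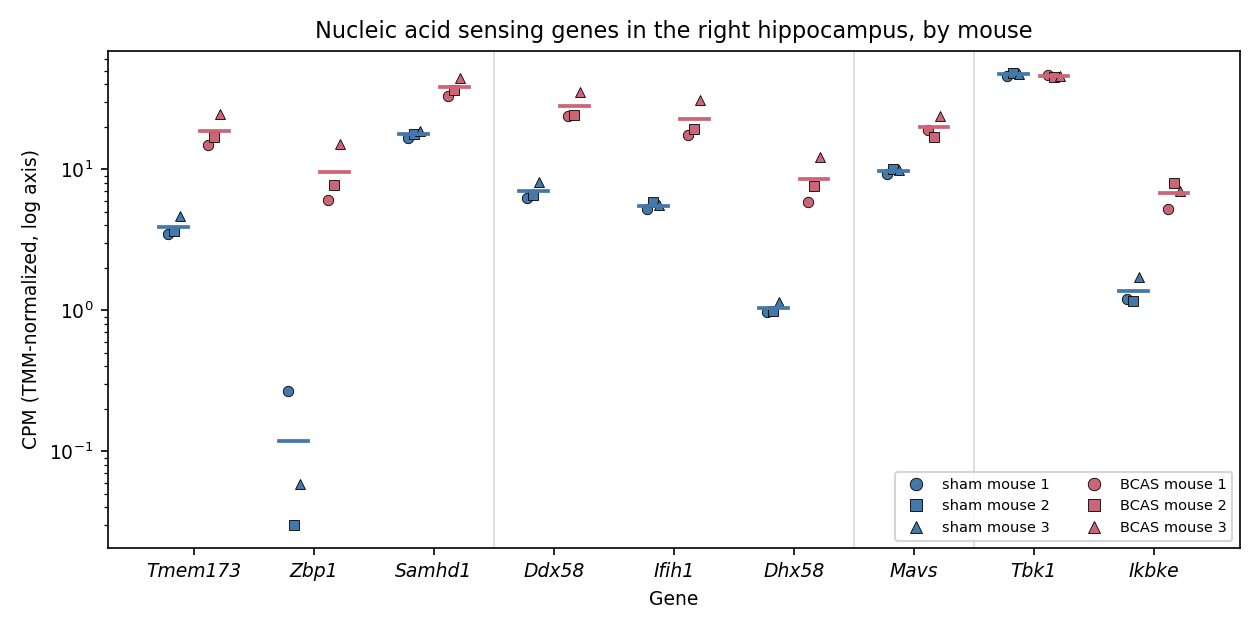
CPM (log axis) of the 9 measured sensing genes in each mouse, with sham in blue, BCAS in red, a symbol for each mouse and a line at each group mean. The groups are apart for every gene shown except Tbk1, where sham mice lie between 46.1 and 47.8 CPM and BCAS mice between 44.8 and 46.5 CPM.

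Among the genes of the DNA side, Tmem173 encodes STING, the adaptor that cGAMP activates. It lies on chromosome 18 from 35733678 to 35740554 (mm10, minus strand). Its level was 3.48, 3.65 and 4.64 CPM in sham mice 1 to 3 and 14.8, 16.9 and 24.5 CPM in BCAS mice 1 to 3. The groups did not overlap, and BCAS mouse 3 stood above the other two. The mean rose 4.78-fold (log2 fold change 2.25 ± 0.21 SE, edgeR adjusted P = 8.05e-05).

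Zbp1, the sensor of Z-form nucleic acid, had the largest log2 fold change of the 9 measured genes. It lies on chromosome 2 from 173206612 to 173218923 (minus strand). The sham libraries held 9, 1 and 2 counts and the BCAS libraries 196, 232 and 467 counts. Sham mice 2 and 3 were thus below the limit of detection, and only sham mouse 1 was above it. In BCAS mice the levels were 6.03, 7.69 and 15.0 CPM. The log2 fold change was 6.29 ± 0.61 SE (edgeR adjusted P = 1.89e-04), with a 95% interval of 4.88 to 7.70. Because so few sham reads stand behind it, the size of this fold is the least certain of the 8 rises, and over the alternative settings it ran from 5.81 to 7.63.

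Samhd1, the deoxynucleotide hydrolase, was already expressed in sham mice at 16.7, 17.8 and 18.5 CPM. It lies on chromosome 2 from 157097533 to 157135265 (minus strand). The BCAS mice had 33.1, 36.7 and 44.0 CPM, all above the sham range. Its rise was 2.15-fold (log2 fold change 1.10 ± 0.12 SE, edgeR adjusted P = 1.47e-04).

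Trex1, the DNA exonuclease, was listed at 0 counts in all 6 libraries. Its exons lie on chromosome 9 between 109057933 and 109059734 (minus strand), and each of their 1147 bases also lies in an exon of Atrip, the neighbouring gene on the same strand. In GENCODE vM21, 1 of the 9 Atrip transcripts covers all of these bases and 3 share some of them. Reads that fall on exons of more than 1 gene were not assigned in the authors' counting. Of the genes in the tables, 1220 have no exonic base of their own, and all 1220 were at 0 counts in every library. The 0 of Trex1 therefore says nothing about its expression. Atrip itself, counted on the bases it does not share, was at 18.8, 19.6 and 19.6 CPM in sham mice and 17.2, 17.0 and 17.1 CPM in BCAS mice. The groups of Atrip did not overlap, yet the log2 fold change, -0.18 ± 0.09 SE, did not pass the test (edgeR adjusted P = 0.184).

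All 3 RNA sensors rose. Ddx58, which encodes RIG-I, lies on chromosome 4 from 40203773 to 40239828 (minus strand). Its level was 6.23, 6.52 and 8.10 CPM in sham mice and 23.8, 24.3 and 35.5 CPM in BCAS mice. BCAS mice 1 and 2 were close to each other and mouse 3 was higher. The mean rose 4.01-fold (log2 fold change 2.002 ± 0.18 SE, edgeR adjusted P = 7.11e-05).

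Ifih1, the gene of MDA5, lies on chromosome 2 from 62595798 to 62646255 (minus strand). Sham mice had 5.19, 5.84 and 5.54 CPM and BCAS mice 17.5, 19.4 and 30.9 CPM. As for Ddx58, the groups did not overlap and BCAS mouse 3 stood apart upward. The mean rose 4.09-fold (log2 fold change 2.03 ± 0.21 SE, edgeR adjusted P = 1.55e-04).

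Dhx58, the gene of LGP2, had the largest rise of the 3 sensors. It lies on chromosome 11 from 100694884 to 100704271 (minus strand), and 4.31% of its exonic bases overlap the antisense gene Dhx58os, which held only 3 to 6 counts per library. Dhx58 was near 1 CPM in sham mice, with 0.974, 0.988 and 1.14 CPM. The BCAS mice had 5.85, 7.63 and 12.2 CPM, so that mouse 3 was again the highest and mouse 1 the lowest. The mean rose 8.30-fold (log2 fold change 3.05 ± 0.30 SE, edgeR adjusted P = 9.04e-05).

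Mavs, the adaptor that RIG-I and MDA5 share, had a smaller fold change than Ddx58, Ifih1 and Dhx58. It lies on chromosome 2 from 131234063 to 131248025 (plus strand). Its level was 9.18, 10.03 and 9.91 CPM in sham mice and 19.1, 17.0 and 23.9 CPM in BCAS mice. The groups did not overlap, and here BCAS mouse 2 was the lowest of its group. Mavs rose 2.06-fold (log2 fold change 1.04 ± 0.14 SE, edgeR adjusted P = 6.23e-04). Under glmTreat, which asks whether a change exceeds the fold threshold itself, neither Mavs nor Samhd1 passed, while the other 6 rises did.

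Of the 2 kinases, Ikbke rose and Tbk1 did not pass the test. Tbk1, on chromosome 10 from 121546455 to 121586787 (minus strand), had the highest level of the measured genes per kb of exon in both groups. It was at 46.1, 47.8 and 47.7 CPM in sham mice and 46.5, 44.8 and 45.9 CPM in BCAS mice. The groups overlapped. The log2 fold change was -0.045 ± 0.07 SE (edgeR adjusted P = 0.665), with a 95% interval of -0.20 to 0.11, and it was 0.031 with library totals in place of TMM.

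Ikbke, the gene of IKKε, was scarce in sham mice, at 1.21, 1.17 and 1.72 CPM. It lies on chromosome 1 from 131254343 to 131279606 (minus strand), and 2.48% of its exonic bases overlap 2 predicted genes on the other strand. In BCAS mice it reached 5.23, 7.96 and 7.05 CPM, with mouse 2 rather than mouse 3 as the highest. The groups did not overlap. The rise was 4.94-fold (log2 fold change 2.30 ± 0.25 SE, edgeR adjusted P = 1.57e-04).

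Levels can be compared between genes only per length of exon, so CPM was divided by the exonic length in kb. This length covers all annotated exons of a gene, such as 9.02 kb for Ikbke and 3.27 kb for Dhx58. The order of genes therefore depends on the annotation. On this scale Tbk1 led in sham mice with 12.1 CPM per kb (SD 0.249, n = 3), followed by Mavs with 2.90 (SD 0.138), Samhd1 with 1.93 (SD 0.101) and Tmem173 with 1.70 (SD 0.270). Ddx58 (0.986), Ifih1 (0.676), Dhx58 (0.316), Ikbke (0.151) and Zbp1 (0.0334 CPM per kb) came after them. Among neighbours in this order, only Samhd1 and Tmem173 overlapped between mice. In BCAS mice Tbk1 still led with 11.7 CPM per kb (SD 0.225, n = 3), above the range of every other gene. Tmem173 moved from the fourth place to the second with 8.14 CPM per kb (SD 2.22), though its range overlapped that of Mavs at 5.98 (SD 1.05). The range of Samhd1 (4.15) overlapped that of Ddx58 (3.95), which overlapped that of Ifih1 (2.77). Zbp1, the lowest of the measured genes in sham mice, reached 2.71 CPM per kb (SD 1.35) in BCAS mice and overlapped both Ifih1 and Dhx58 (2.62). Ikbke was then the lowest measured gene, at 0.748 CPM per kb.

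**Figure D2:**
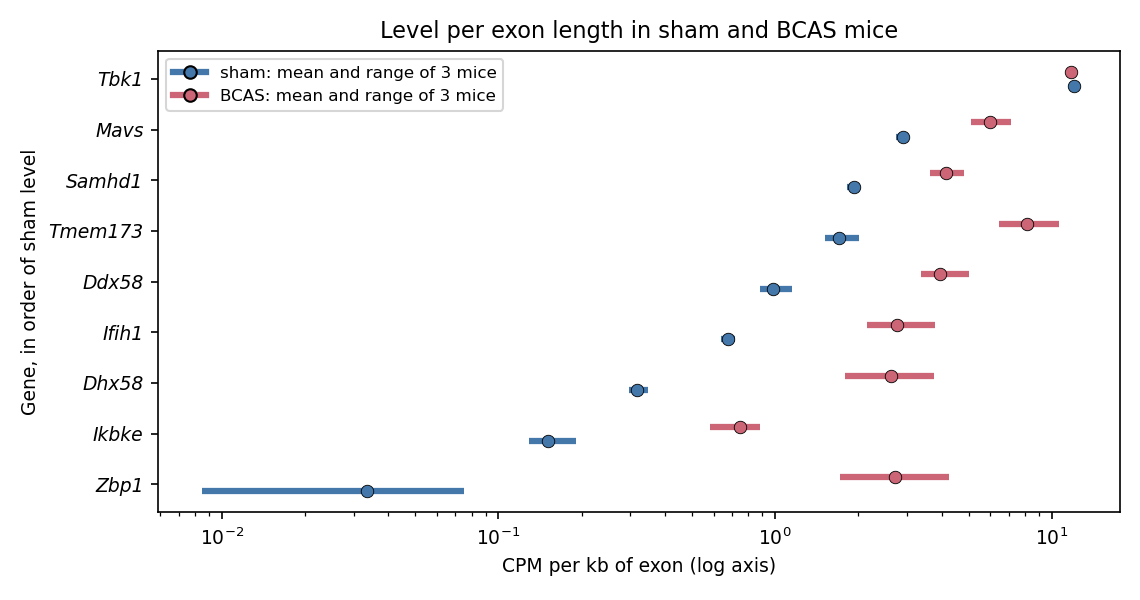
CPM per kb of exon (log axis) for each gene, as the mean (dot) and range (bar) of 3 sham mice in blue and 3 BCAS mice in red, in the order of the sham level. The means of the 9 measured genes run from 0.0334 (Zbp1) to 12.1 (Tbk1) in sham mice and from 0.748 (Ikbke) to 11.7 (Tbk1) in BCAS mice.

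Differences between genes within a library hardly depend on how libraries are scaled, and 5 pairs were followed mouse by mouse. Dropping the TMM factors moved the shift between groups most for Dhx58 minus Mavs, from 1.891 to 1.889. The log2 CPM of Ddx58 minus that of Mavs was -0.56, -0.62 and -0.29 in sham mice and 0.32, 0.51 and 0.57 in BCAS mice. Ddx58 thus had fewer reads than Mavs in every sham mouse and more in every BCAS mouse. These reads are not corrected for exon length. Per kb of exon Ddx58 stayed below Mavs in BCAS mice, at most 5.03 against at least 5.09 CPM per kb. For Ifih1 minus Mavs the values were -0.81, -0.77 and -0.83 in sham mice and -0.12, 0.19 and 0.37 in BCAS mice. For Dhx58 minus Mavs they were -3.16, -3.27 and -3.06 in sham mice and -1.69, -1.15 and -0.96 in BCAS mice. The shifts between group means were 0.95, 0.95 and 1.89, each without overlap between the groups.

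Ikbke minus Tbk1 was -5.18, -5.28 and -4.74 in sham mice and -3.14, -2.48 and -2.69 in BCAS mice, a shift of 2.30. For Tmem173 minus Tbk1 the sham mean was -3.58 ± 0.20 (SD, n = 3). The BCAS mean was -1.32 ± 0.38 (SD, n = 3), which is a shift of 2.26. In each of the 5 pairs the shift was larger than the SD of either group. The exact two-sided permutation test gave P = 0.1 for every pair, the smallest value that 3 mice against 3 allow, and 0.1 after adjustment over the 5 pairs.

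**Figure D3:**
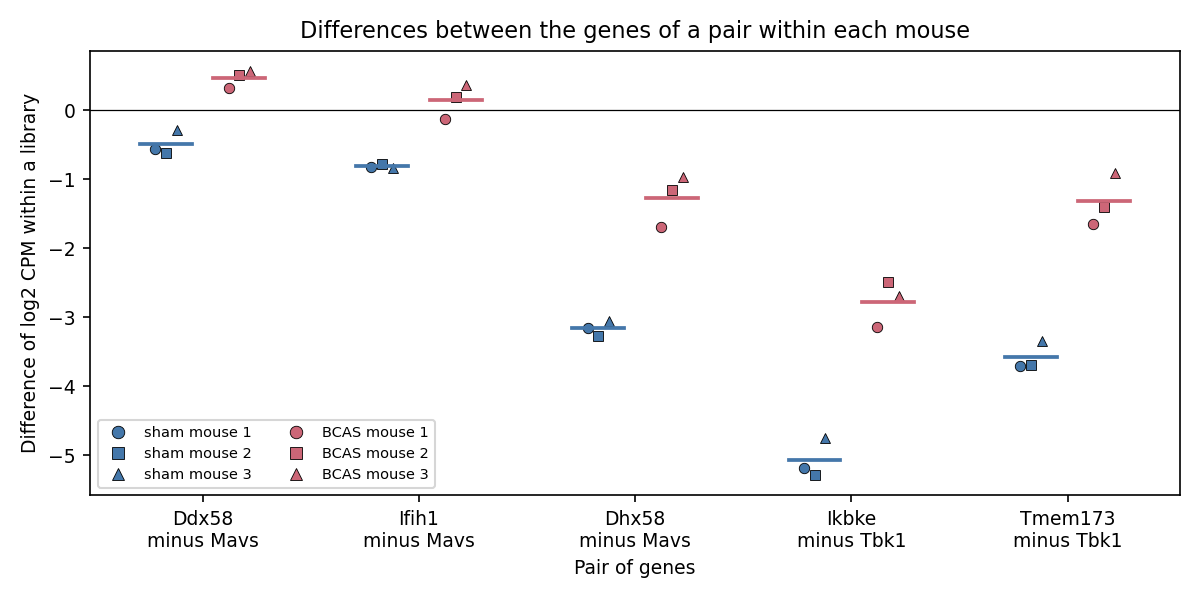
Difference of log2 CPM between the genes of a pair within each library, by mouse, with sham in blue, BCAS in red and a line at each group mean. In all 5 pairs each BCAS mouse lies above each sham mouse, with shifts of the mean from 0.95 to 2.30.

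Other genes of the pathway were described from lists of symbols, where a gene rose or fell if it passed the test at an adjusted P below 0.05. Of 17 genes of DNA sensing, cGAMP handling and STING transport, 5 rose, none fell and 12 did not pass the test, where 18.1% of all tested genes rose and 13.4% fell. Their median log2 fold change was 0.18, beside 0.018 over all tested genes. The 3 up-regulated DEGs (17.6% of the list, against 8.44% of all tested genes) were Aim2 (1.81), which builds an inflammasome on DNA, Enpp1 (1.23), which hydrolyses cGAMP, and Cgas (1.14). Cgas had 1.98, 2.27 and 2.24 CPM in sham mice and 3.54, 5.04 and 5.80 CPM in BCAS mice (edgeR adjusted P = 0.00565). It therefore rose without overlap from a low level. The 2 most abundant genes of the list per kb, Banf1 (-0.21) and Tmed2 (0.21), did not pass. Without BCAS mouse 3 the list held 1 up-regulated DEG.

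Of 21 further genes of RNA sensing and of RIG-I and MAVS regulation, 6 rose, 3 fell and 12 did not pass the test, with a median log2 fold change of 0.047. The 3 that fell are a share near the 13.4% of all tested genes that fell, and 18.1% of all tested genes rose. The 4 up-regulated DEGs (19.0%, against 8.44%) were Ddx60 (3.09), a helicase linked to RIG-I signalling, Eif2ak2 (2.40), which encodes the RNA-dependent kinase PKR, Trim25 (1.73), a ubiquitin ligase for RIG-I, and Zc3hav1 (1.66), the zinc finger antiviral protein. Eif2ak2 went from 6.14, 5.75 and 4.55 CPM in sham mice to 25.0, 20.5 and 41.3 CPM in BCAS mice. Tomm70a (-0.54), an import receptor of the outer mitochondrial membrane, was among the most abundant genes of the list and fell. The other two that fell, Cyld (-0.40), a deubiquitinase, and Dhx36 (-0.28), a helicase, were named after their values were seen. Ddx3x, the most abundant gene per kb, had a log2 fold change of -0.034 and did not pass.

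Of 10 partners of TBK1 and IKKε and transcription factors of the pathway, 3 rose and 7 did not pass the test, with a median of 0.20. The share of up-regulated DEGs was 10%, near the 8.44% of all tested genes, of which 18.1% rose. Irf7, the factor that amplifies type I interferon production, was the only DEG, at 4.31 ± 0.46 SE on the log2 scale (edgeR adjusted P = 0.00124). It had 2.66, 2.72 and 2.10 CPM in sham mice and 35.0, 30.9 and 82.5 CPM in BCAS mice. BCAS mouse 3 stood above the other two, and all 3 were above the sham range. Irf3, the factor that is present before induction, rose by 0.55 (edgeR adjusted P = 0.0124), and Optn, an adaptor of TBK1, rose by 0.34. The most abundant genes of this list per kb, Sqstm1 (-0.17) and Tbkbp1 (-0.019), did not pass.

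Transcripts of the interferons themselves were at or below the limit of detection. All 21 interferon genes of the list had 3 counts or fewer in every library, and 17 had 0 counts in all 6. None entered the test, and a difference was not detectable at this depth.

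**Figure D4:**
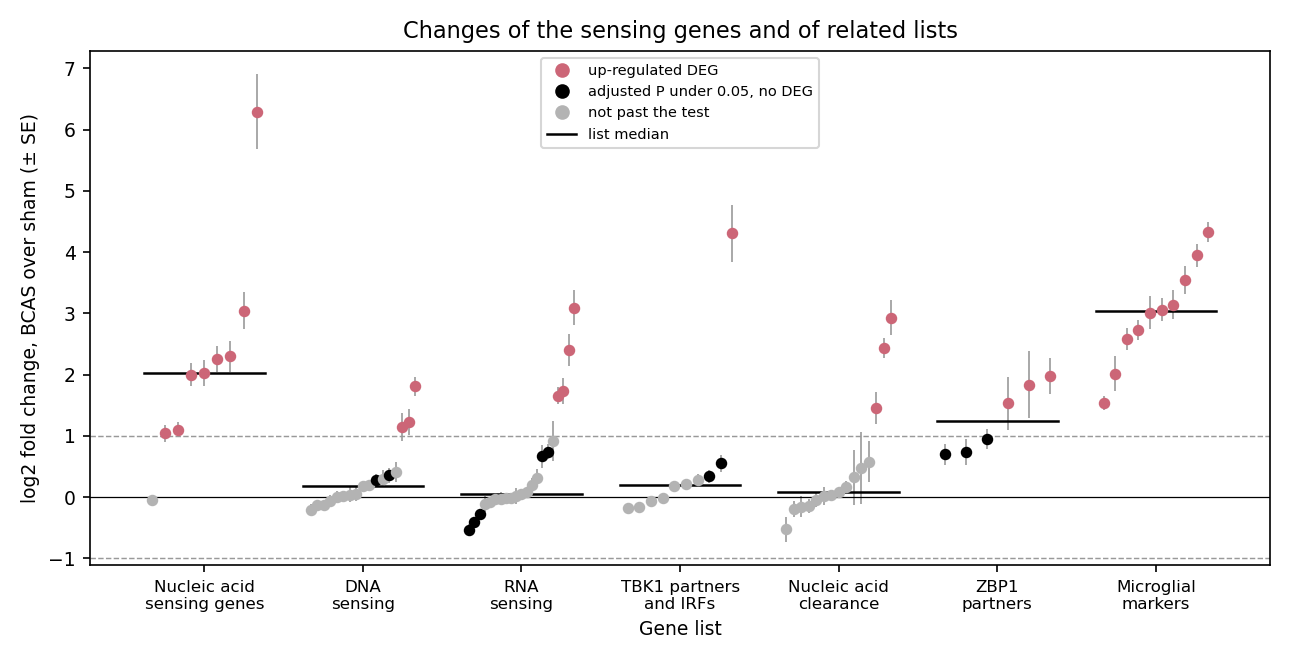
Log2 fold change (BCAS over sham, ± standard error of the fit) of each tested gene, by list, with up-regulated DEGs in red, other genes past the test in black, the remainder in grey, a line at each list median and dashed lines at -1 and 1. Of the 9 tested sensing genes 8 lie above 1, whereas most genes of the 4 lists of pathway partners and clearance enzymes lie near 0 (medians 0.047 to 0.20), the 6 partners of ZBP1 have a median of 1.24 and all 10 microglial markers lie above 1.

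Markers of cell types moved with the groups, and their counts stand beside 18.1% of all tested genes that rose and 13.4% that fell. All 10 microglial markers were up-regulated DEGs, none was at 0, and their summed level was 342 to 361 CPM in sham mice and 2258 to 3617 CPM in BCAS mice. In whole tissue, more cells of a type and more RNA per cell cannot be told apart. Of 10 neuronal markers 7 fell, and their sum went from 6574 to 7282 CPM in sham mice down to 3610 to 5301 CPM in BCAS mice. These levels are those of neuronal tissue, as the label of hippocampus says. All 7 astrocyte markers rose, with sums of 3656 to 4004 CPM in sham mice and 8555 to 9174 CPM in BCAS mice. Of 7 endothelial markers 4 rose, with sums of 265 to 290 CPM and 351 to 392 CPM. Of 8 markers of blood monocytes and neutrophils 4 rose, 2 did not pass and 2 were not tested. Their sums were 7.45 to 9.68 CPM and 83.3 to 133 CPM, most of it Csf3r. Csf3r alone had means of 6.98 CPM in sham mice and 95.2 CPM in BCAS mice, so the sums largely follow this gene. The other three that rose were the monocyte markers Ccr2, with means of 0.501 CPM in sham mice and 4.36 CPM in BCAS mice, Plac8 (0.0782 and 1.95 CPM) and Ly6c2, which had at most 1 count in each sham library and 39 to 74 counts in the BCAS libraries. Ly6g was at 0 in all libraries. Of 7 T cell markers 6 rose, with sums of 2.57 to 3.85 CPM and 10.4 to 11.6 CPM. Of 6 markers of plasmacytoid dendritic cells 2 rose, Siglech and Bst2, 2 did not pass and 2 were not tested. Klk1 was below the limit of detection in every library. Whether plasmacytoid dendritic cells were present was not tested. Siglech had a mean of 14.0 CPM in sham mice and 69.0 CPM in BCAS mice, and Bst2 of 3.89 and 42.4 CPM. The sum of this list, 470 to 479 CPM and 485 to 516 CPM, was mostly Tcf4, with means of 456 and 390 CPM. The part of these cell types in the rises of the sensing genes was not tested.

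The sensing genes were also expressed relative to the microglial markers, as log2 CPM minus the mean log2 CPM of the 10 markers in the same library. The marker mean was higher by 2.95 in BCAS mice, but single markers had log2 fold changes from 1.54 (P2ry12) and 2.02 (Tmem119) to 4.33 (Trem2). The log2 fold changes of Tmem173, Ikbke and Ifih1 exceeded those of P2ry12 and Tmem119, and that of Ddx58 exceeded P2ry12 alone. For these genes, and for Dhx58 (3.05), the sign of a relative change thus depends on the marker taken. Samhd1 (1.10), Mavs (1.04) and Tbk1 (-0.045) lay below the smallest marker change, and Zbp1 (6.29) above the largest. Relative to the marker mean, Zbp1 was higher in BCAS mice. Its relative level averaged -7.29 ± 0.96 (SD, n = 3) in the sham group and -4.37 ± 0.30 (SD, n = 3) in the BCAS group, and the sham value rests on 9 counts or fewer per library. Dhx58 differed little from the markers in its change, at -4.45 (SD 0.09) and -4.49 (SD 0.20), and its groups overlapped. The other 7 measured genes were lower relative to the marker mean in every BCAS mouse than in any sham mouse. Their shifts were -0.69 for Ikbke, -0.73 for Tmem173, -0.97 for Ddx58 and Ifih1, -1.86 for Samhd1, -1.92 for Mavs and -2.99 for Tbk1. The SD among BCAS mice was smaller on this scale than for plain log2 CPM in Tmem173 (0.07 against 0.38), Ddx58 (0.07 against 0.32) and Ifih1 (0.06 against 0.44). It was also smaller in Zbp1 (0.30 against 0.67), Dhx58 (0.20 against 0.54) and Mavs (0.19 against 0.25). It was larger in Ikbke (0.42 against 0.31) and Tbk1 (0.39 against 0.028), and about equal in Samhd1 (0.20 against 0.21). BCAS mouse 3 was no longer the highest in Tmem173, Ddx58, Samhd1 or Mavs, but it still was in Ifih1, Zbp1 and Dhx58. These relative levels carry no test.

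**Figure D5:**
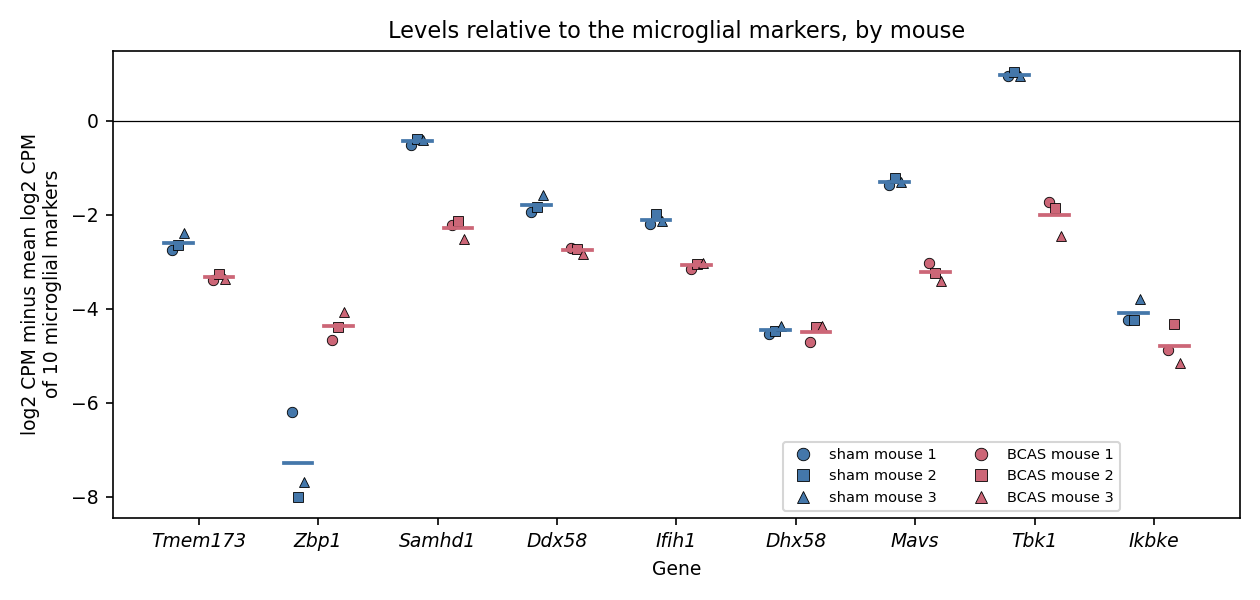
Log2 CPM of each sensing gene minus the mean log2 CPM of 10 microglial markers in the same library, by mouse, with sham in blue, BCAS in red and a line at each group mean. Zbp1 is higher in BCAS mice (-4.37 against -7.29), Dhx58 overlaps and the other 7 genes are lower.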

How the data were processed

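The 10 genes and all lists were chosen with earlier results of these data known. As the study's methods and the labels describe, the authors trimmed the reads with Trim Galore, aligned them to mm10 with HISAT2 and counted them with featureCounts. The deposited values are raw counts per gene, whole numbers with no normalization. Per the file headers, featureCounts 2.0.3 was run with GENCODE vM20, whereas the labels name version 1.6.3; each mate counted on its own, no strand was used, and a read on several genes went to none. Symbols were matched for 54723 of 54752 identifiers.

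Genes were kept by filterByExpr, scaled by TMM and tested with edgeR 4.0.16 (quasi-likelihood, no replicate block) in R 4.3.3, with Benjamini-Hochberg adjustment over all tested genes. CPM used TMM-scaled totals of the tested genes, and log2 CPM a prior count of 2. Standard errors were derived from the fold change and the F statistic. Named genes are the 10, and in other lists at most the 4 largest changes past the test with a mean of at least 1 CPM, the 2 most abundant per kb and the genes that define a branch. Alternatives were DESeq2 1.42.0, limma-voom 3.58.1, other scalings and filters, glmTreat, no fold threshold, halved counts, the replicate block and leaving out each mouse. The fit was tested on simulated data. With 29652456 to 35607098 counts per library, precision is limited for genes at few counts. No protein sequence was used here.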

Additional observations from a re-analysis of the deposited data

How the results depend on the processing

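All 8 rises kept their direction under every setting run, and between 6 and 8 of the 10 genes were up-regulated DEGs. The 6 came from glmTreat and from leaving out BCAS mouse 3, and leaving out single mice gave 6 to 8. All DEGs numbered 1755, against 812 with glmTreat, 5865 without a fold threshold and 1313 to 1965 with each mouse left out. The down-regulated DEGs numbered 184, against 12 with glmTreat, 2491 without a fold threshold and 95 to 242 with each mouse left out. With glmTreat the DNA sensing list and the ZBP1 partner list held 1 up-regulated DEG each. Without a fold threshold they held 5 and 6, and the TBK1 list 3. With each mouse left out they held 1 to 3 (DNA sensing) and 1 to 4 (ZBP1 partners). The log2 fold change of Tbk1 was 0.031 with library totals. Dhx58 relative to the microglial markers was -0.033, 0.017 with a prior count of 0.5 and -0.098 to 0.080 with each mouse left out. The relative shift of Zbp1 was 2.92, 3.55 with a prior count of 0.5 and 2.54 with halved counts. The cause of these differences was not tested. With the replicate number as a block there were 1600 DEGs, 8 of them among the 10 genes, and no call among these genes changed. Residuals of libraries with the same number correlated at 0.036, -0.31 and -0.16, and those with different numbers at -0.25 to 0.35. With 3 libraries per group, centred on their group mean, these values cannot tell whether the numbers pair the mice. At this depth Zbp1 in sham mice and the interferon genes were below or near the limit of detection.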

Other observations

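ZBP1 acts on a branch of genes for programmed cell death, and all 6 of its listed partners rose in BCAS mice, 3 of them as DEGs, where 18.1% of all tested genes rose and 8.44% were up-regulated DEGs. The median log2 fold change was 1.24, beside 0.018 over all tested genes. Casp8, the caspase that decides between apoptosis and necroptosis, had 2.51, 3.32 and 1.84 CPM in sham mice and 8.09, 8.09 and 14.0 CPM in BCAS mice (log2 fold change 1.98, edgeR adjusted P = 0.00108). The log2 fold change of Mlkl, the executor of necroptosis, was 1.84 ± 0.55 SE (edgeR adjusted P = 0.0301). That of Ripk3, the kinase that activates it, was 1.53 ± 0.43 SE (edgeR adjusted P = 0.0229). Ripk3 and Mlkl were low in every library, with at most 1.57 CPM. Ripk1 (0.95), Fadd (0.74) and Casp6 (0.70) passed the test below the fold threshold. The partners held 1 up-regulated DEG without BCAS mouse 3 and 1 without sham mouse 2.

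Among 15 genes that clear or edit nucleic acid, 3 rose, all of them DEGs, and 12 did not pass the test, with a median of 0.079. The share that rose, 20%, is close to the 18.1% of all tested genes that rose, and 8.44% of all tested genes were up-regulated DEGs. The DEGs were Pld4 (2.93) and Dnase2a (2.43), which degrade nucleic acid in lysosomes, and Dnase1l1 (1.45). Dnase2a had 4.43, 4.67 and 4.72 CPM in sham mice and 21.4, 22.3 and 31.0 CPM in BCAS mice. Pld3, a relative of Pld4 and the most abundant gene of the list per kb, had a log2 fold change of -0.19, and Adar, the RNA editing enzyme, 0.079. Neither passed the test.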
